A study of Mus musculus with 30 samples.

Results

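ATF2, ATF7 or both met KLF4, KLF5 or both at 1372 genomic regions of 3T3-L1 cells. None of these regions was listed for cJun, FOSL2, JunB, VDR or RXR. These regions were selected on the listing itself: the identical interval had to stand in the ATF2 or the ATF7 list and in the KLF4 or the KLF5 list, and in none of the 5 other lists. They made up 3.95% of the 34724 intervals on chromosomes 1 to 19 and X (exact 95% interval 3.75% to 4.16%). The choice fixes which factors are present and absent, so the counts of presence and absence are a description. The order of the rows, the neighbouring intervals and the choice between the members of each family were not used to pick them.

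The binding lists came from chromatin immunoprecipitation with sequencing (ChIP-seq) in 3T3-L1, a mouse fibroblast line that can be turned into fat cells. All 9 lists came from 1 condition, 4 h after induction with 1 μM dexamethasone (a synthetic glucocorticoid), 0.5 mM IBMX (an inhibitor of cyclic AMP breakdown), 1 μg/ml insulin and 10% FCS. There was 1 library per factor, with no replicate, no untreated counterpart among the 9 and no control value in the lists. The errors below therefore cover counting only, and no p-value is given. Neighbouring regions are not independent, which these intervals do not cover. The authors' lists give only the position of each 400 bp interval in the mouse build mm9, so the depth of the libraries is unknown. A factor written as absent is one whose list does not hold the interval, which is not the same as no binding.

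ATF2 and ATF7 are closely related bZIP proteins. They bind the cyclic AMP response element as dimers with themselves, with each other or with Jun proteins. KLF4 and KLF5 are zinc-finger proteins of the Krüppel-like family that bind GC-rich and CACCC sequences. Both have known roles early in fat cell formation: KLF4 activates the gene for C/EBPβ, and KLF5 acts with C/EBPβ and C/EBPδ on the gene for PPARγ2. The 5 factors required to be absent are the AP-1 subunits cJun, JunB and FOSL2, the vitamin D receptor VDR, and RXR, the heterodimer partner of VDR and many other nuclear receptors.

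An ATF and a KLF shared 6036 intervals (17.4% of all). Of these, 22.7% (21.7% to 23.8%) were listed for none of the 5 other factors. Another 933 carried 1 of them, 998 carried 2, 872 carried 3, 961 carried 4 and 900 carried all 5. The joint regions were thus spread over the whole range of company, and the 1372 regions formed the most numerous of the 6 classes.

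Just outside the selection lay the 933 regions with 1 of the 5 factors. The extra factor was RXR at 303 of them (32.5%), FOSL2 at 265 (28.4%), VDR at 231 (24.8%), JunB at 119 (12.8%) and cJun at 15 (1.61%). In the 4664 joint regions with any of the 5, cJun was listed at 40.0%. The cJun subunit therefore stood at many joint regions, but seldom as the 1 factor added to an ATF and a KLF.

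Pairs made up most of the set. Regions listed for 2 factors numbered 805 (58.7%), those for 3 numbered 520 (37.9%) and those for all of ATF2, ATF7, KLF4 and KLF5 numbered 47 (3.43%). ATF2 with KLF5 was the largest combination, with 580 regions (42.3%, interval 39.6% to 44.9%). ATF2 and ATF7 together with KLF5 followed with 381 (27.8%), and ATF7 with KLF5 with 175 (12.8%). These 3 combinations without KLF4 outnumbered all 6 with KLF4. ATF2, KLF4 and KLF5 met at 78 regions, ATF2, ATF7 and KLF4 at 33, ATF7, KLF4 and KLF5 at 28, ATF2 and KLF4 at 28, and ATF7 and KLF4 at 22.

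**Figure D1:**
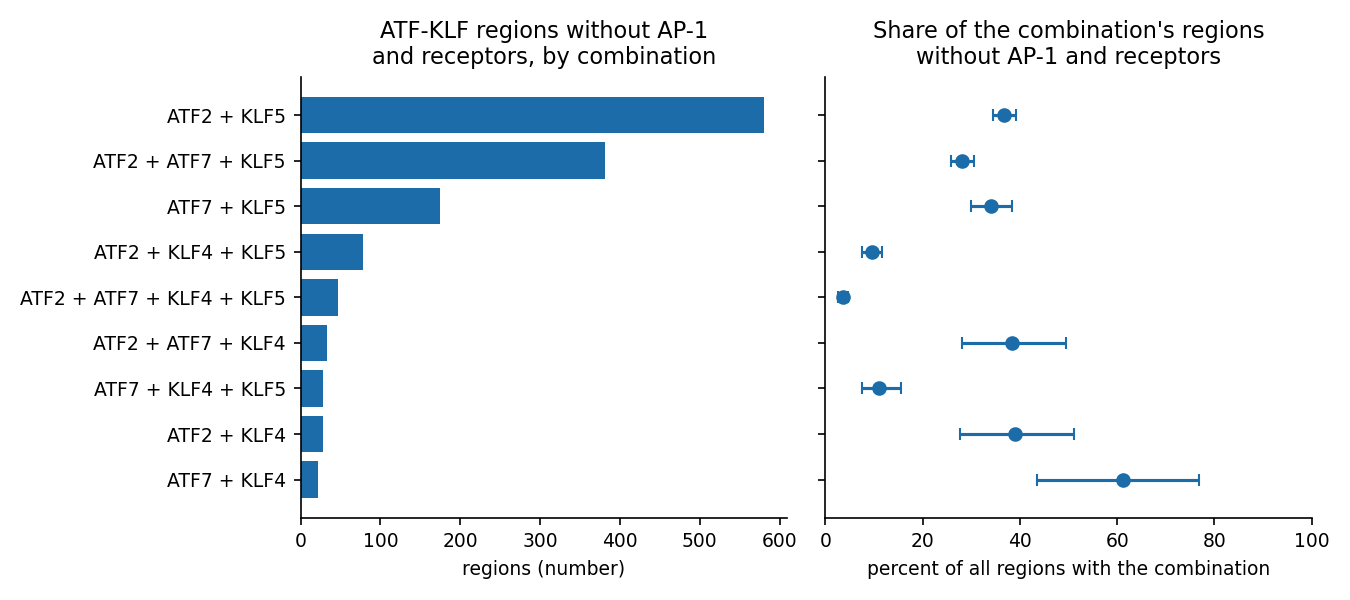
Left, number of regions in each of the 9 combinations. Right, the share of all regions with that combination of ATF and KLF factors that carried none of cJun, FOSL2, JunB, VDR and RXR, in percent with exact 95% intervals. The 3 combinations with both KLFs lie lowest on the right, between 3.55% and 11.1%.

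By factor, KLF5 was listed at 1289 of the 1372 regions, ATF2 at 1147, ATF7 at 686 and KLF4 at 236. This was 7.53% of the KLF5 list, 9.93% of the ATF2 list, 9.30% of the ATF7 list and 4.02% of the KLF4 list. The lists themselves differ in length, with 17120 sites for KLF5, 11547 for ATF2, 7375 for ATF7 and 5876 for KLF4, and how much of that reflects depth or antibody cannot be told apart from binding.

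The share of regions with none of the 5 other factors differed widely between combinations. It was 36.8% of 1577 regions for ATF2 with KLF5, 28.1% of 1354 for ATF2 and ATF7 with KLF5, and 34.1% of 513 for ATF7 with KLF5. With KLF4 in place of KLF5 it was 38.9% of 72 regions for ATF2, 38.4% of 86 for both ATFs and 61.1% of 36 for ATF7. Where both KLFs were present it was 9.49% of 822 regions with ATF2, 11.1% of 253 with ATF7 and 3.55% of 1323 with both ATFs. Regions with both KLFs thus seldom lacked all 5, and 504 of the 1323 regions with all 4 factors carried all 5 of the others as well. Combinations of KLF4 without KLF5 had shares at least as high as those of KLF5 without KLF4, on far fewer regions.

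A first comparison asked whether the choice between related factors depended on the other family when AP-1 and receptors were absent. Among regions without the 5 factors, KLF4 was listed at 17.2% of the 1372 with an ATF, against 13.7% of the 4754 with KLF factors alone. The difference was 3.51 percentage points (1.35 to 5.80), and it was positive on 14 of 20 chromosomes. KLF5 was listed at 94.0% and 93.7%, a difference of 0.219 points with an interval (-1.32 to 1.57) that held 0. Taken over all these regions, KLF4 was therefore slightly more frequent beside an ATF, while no difference in KLF5 was detectable. Near the top of the lists the KLF4 difference had the opposite sign, as given below.

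The same comparison from the other side set the 1372 regions against 5877 regions with ATF factors alone. ATF2 was listed at 83.6% of regions with a KLF and 77.7% of regions with ATFs alone (5.91 points, 3.60 to 8.06). ATF7 was listed at 50% and 44.7% (5.28 points, 2.35 to 8.21). Both ATFs were present at 33.6% and 22.4%, a difference of 11.2 points (8.51 to 13.9) that was positive on 17 of 20 chromosomes. The excess of ATF2 and of ATF7 beside a KLF thus came with more regions listed for both.

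Read in the other direction, the partner family was met more often where both factors of a family were listed. Regions with ATF2 and ATF7 carried a KLF in 25.9% of 1778 cases, against 17.4% of 3935 with ATF2 and no ATF7 (8.49 points, 6.17 to 10.9) and 14.6% of 1536 with ATF7 and no ATF2 (11.3 points, 8.56 to 13.96). Regions with KLF4 and KLF5 carried an ATF in 30.2% of 506 cases, against 21.7% of 5239 with KLF5 and no KLF4 (8.55 points, 4.55 to 12.8). KLF4 without KLF5 carried an ATF in 21.8% of 381 cases, which differed from KLF5 without KLF4 by 0.101 points (-3.91 to 4.65).

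The rows of the 9 lists follow 1 common order, which runs with the number of factors per interval, so these shares were recomputed within 5 equal bins of that order, bin 1 being the top. In bin 1, KLF4 was less frequent in the regions with an ATF (9.93% of 302) than in those with KLFs alone (18.6% of 377), a difference of -8.63 points (-13.8 to -3.33). It was higher in each of the other 4 bins, by 3.45 to 6.60 points, with an interval that left out 0 in bin 5. The ATF7 difference was 9.04 points (2.48 to 15.3) in bin 1 and 8.80 points (1.56 to 16.1) in bin 5. It was 5.98 points in bin 2, -3.13 in bin 3 and -5.31 in bin 4, with intervals that held 0. Weighted over the bins, the KLF4 difference was 1.36 points (-0.992 to 3.72) and the ATF7 difference 2.55 points (-0.378 to 5.49). Both weighted intervals held 0, but they average over bins with opposite signs. The excess of regions with both ATFs stood at both ends of the order. It was 14.2 points (7.46 to 20.7) in bin 1 and 10.1 points (5.05 to 16.3) in bin 5, against 0.178 points (-5.30 to 6.09) in bin 3. The share with a KLF followed the same course: regions with both ATFs exceeded those with ATF2 alone by 11.2 points (5.02 to 17.2) in bin 1 and 10.3 points (5.20 to 16.4) in bin 5, and differed from them by -0.911 points (-5.78 to 4.23) in bin 3. The excess of an ATF at regions with both KLFs over KLF5 alone was -9.24 points (-21.7 to 4.81) in bin 1 and 14.7 points (5.35 to 27.02) in bin 5.

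Within the 1372 regions, the choice of KLF was set against the choice of ATF. KLF4 was listed at 22.2% of the 225 regions with ATF7 alone, 15.5% of the 686 with ATF2 alone and 17.4% of the 461 with both. The first exceeded the second by 6.77 points (1.04 to 13.2), but on 11 chromosomes against 8 with the opposite sign. ATF7 was listed at 66.3% of the 83 regions with KLF4 and no KLF5, against 48.9% of the 1136 with KLF5 and no KLF4 (17.3 points, 6.24 to 27.02). Where both KLFs were present the ATF7 share was 49.0% of 153. The higher ATF7 share beside KLF4 was thus seen at regions without KLF5, which are few.

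The rows of the deposited lists are not in order of position. Shared intervals follow 1 common order in all 9 lists, and from this the order of all 34726 intervals, including 2 on chromosome Y, could be rebuilt. The place of an interval was known to within a median of 5 rows and at worst 417 rows. For the 1372 regions the median was 3 rows and the largest 103. The sources used here do not say what quantity the order follows. The mean number of listed factors was 4.69 in the first 10% of the order and 1.20 in the last 10%. Position is given below in percent from the top.

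Set among all intervals, the 1372 regions lay in the middle, with a median position of 47.8% (45.5% to 50.4%), against 50.1% for all other intervals. Regions with KLFs alone had a median of 68.0% and those with ATFs alone 63.5%, while joint regions with AP-1 or receptors had 22.0%. The ATF-KLF regions without AP-1 and receptors thus stood above regions of either family alone and below joint regions with further factors.

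The same arrangement held within each factor's own list. Each list is a part of the shared order, so this is not separate evidence. In the ATF2 list the median position was 54.6% for the 1372 regions' ATF2 sites, against 68.9% for sites with ATFs alone and 28.5% for joint sites with AP-1 or receptors. In the ATF7 list it was 54.1%, against 71.6% and 30.3%. In the KLF5 list it was 59.9%, against 78.3% for sites with KLFs alone and 31.5% for joint sites with further factors. In the KLF4 list the median was 81.0%, against 86.6% and 37.5%, so sites with KLFs alone stood low there as well. In the order shared by all lists, the set's KLF4 and KLF5 sites had similar medians, of 47.6% and 47.7%. Of the set's KLF4 sites, 11 of 236 (4.66%) fell in the first 25% of the KLF4 list, against 2.76% of its 651 sites with KLFs alone. The set's share in the first 25% was 21.9% for ATF2, 22.7% for ATF7 and 19.6% for KLF5.

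**Figure D2:**
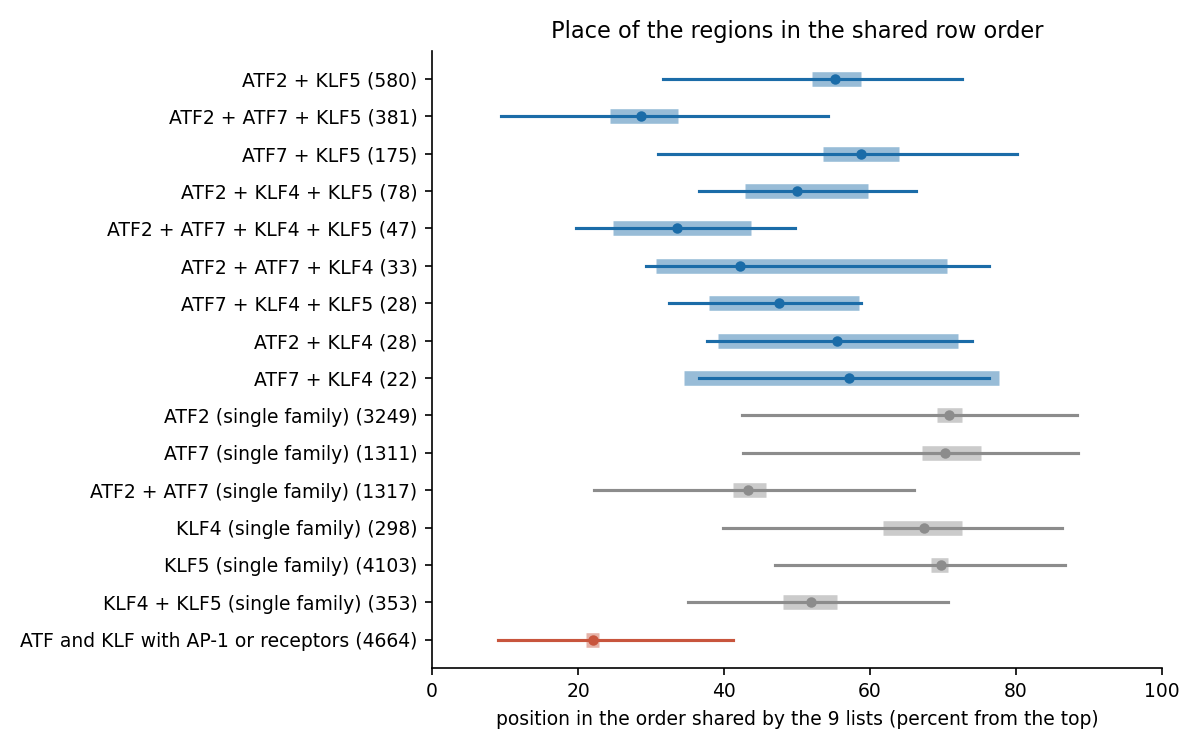
Position in the row order shared by the 9 lists, in percent from the top, for the 9 combinations (blue), regions of a single family without the 5 other factors (grey) and joint regions with AP-1 or receptors (red). Points are medians, thick bars their 95% intervals and thin lines the quartiles, with the number of regions in brackets. ATF2 with ATF7 and KLF5 has a median of 28.7%, the nearest to the top among the blue rows.

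Since the number of factors itself falls along the order, regions were compared with others listed for the same number. The 805 regions with 2 factors had a median position of 56.2% (54.0% to 59.1%), against 53.0% (52.4% to 54.3%) for the other 6143 intervals with 2 factors. The 520 with 3 factors had 35.8% (32.3% to 39.2%), against 42.6% (41.3% to 43.6%) for 3830 others. The 47 with 4 factors had 33.6% (24.8% to 43.7%), against 32.6% for 2708 others. Counted as 1 class, regions with 3 factors lay nearer the top than others with as many, and those with 2 or 4 did not.

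The lead of the regions with 3 factors rested on 381 of the 520, those of 1 combination, and the other 3 combinations had medians of 42.2%, 47.6% and 49.97%. ATF2, ATF7 and KLF5 had a median position of 28.7% (24.4% to 33.7%), which was the nearest to the top of 38 combinations of 3 factors with at least 20 regions. The next was ATF2, ATF7 and FOSL2 at 28.8% (26.5% to 33.4%), whose interval overlaps it. Of the 381 regions, 99 (26.0%, 21.7% to 30.7%) stood in the first 10% of the order. That share was 12.1% for the 1317 regions with ATF2 and ATF7 alone, whose median position was 43.3% (41.3% to 45.8%), and 8.28% for ATF2 with KLF5. Regions with ATF2, ATF7 and KLF5 thus lay nearer the top than regions with ATF2 and ATF7 alone or with ATF2 and KLF5 alone. Those sets hold 2 factors, and this comparison does not match the number of factors. All intervals with 2 factors had a median of 53.8%, and those with 3 had 42.0%.

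The combinations with KLF4 rested on fewer regions and had wider intervals. ATF2, ATF7 and KLF4 had a median of 42.2%, with an interval from 30.7% to 70.5%. The 47 regions with all 4 factors had 33.6%, with an interval that overlaps that of ATF2, ATF7 and KLF5, and 6 of them (12.8%) stood in the first 10%. ATF2, KLF4 and KLF5 had 49.97% and ATF7, KLF4 and KLF5 had 47.6%. The 4 pairs were all in the lower part, with 55.2% for ATF2 and KLF5, 55.4% for ATF2 and KLF4, 57.1% for ATF7 and KLF4, and 58.8% for ATF7 and KLF5. Among 30 pairs with at least 20 regions they ranked 13th, 14th, 15th and 17th from the top.

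**Figure D3:**
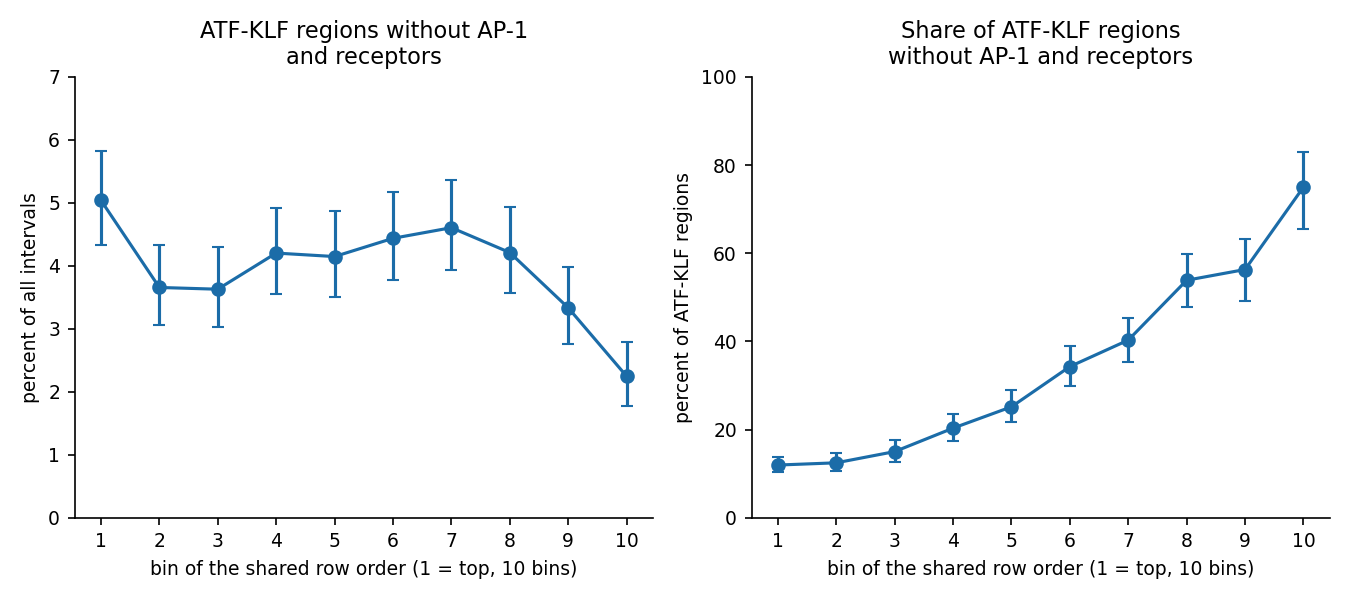
The shared row order in 10 equal bins from the top (1) to the bottom (10). Left, the 1372 regions as a percentage of all intervals in the bin; right, as a percentage of the ATF-KLF regions in it, both with exact 95% intervals. The left panel runs from 5.04% in bin 1 to 2.25% in bin 10, and the right panel from 12.0% to 75%.

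Along the order in 10 bins, the 1372 regions made up 5.04% of bin 1 (175 regions), between 3.33% and 4.61% of the bins in between, and 2.25% of bin 10 (78 regions). The number of joint ATF-KLF regions fell much more steeply, with 1462 in bin 1 and 104 in bin 10. The share of joint regions without the 5 other factors was therefore 12.0% in bin 1, 25.2% in bin 5 and 75% in bin 10. The mean number of factors over all intervals fell from 4.69 to 1.20 between bins 1 and 10. The rise was not compared with that of other pairs of families.

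The next comparison looked at other intervals nearby, measured between midpoints, so intervals that overlap a region also counted as its neighbours. Another interval lay within 1 kb of 314 of the 1372 regions (22.9%), where 19% of all intervals had one. The difference from all other intervals (18.8%) was 4.07 points (1.89 to 6.41). At 10 kb the share was 59.8%, against 60.7% of all other intervals and a background of 60.6% over all intervals. The regions thus had more close neighbours than all other intervals as a whole, while at 10 kb no difference was detectable. This was not so against each similar set. Within 1 kb the difference was 2.14 points (-0.247 to 4.66) from regions with ATFs alone and 3.20 points (0.761 to 5.75) from those with KLFs alone, and it was -2.65 points (-5.14 to -0.0438) from joint regions with AP-1 or receptors. Their median distance to the nearest interval was 6.03 kb (5.06 to 6.91), against 6.50 kb for regions with ATFs alone, 5.81 kb for those with KLFs alone and 3.63 kb for joint regions with AP-1 or receptors.

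The close neighbours were themselves mostly free of AP-1 and receptors. All neighbours within 1 kb lacked the 5 factors at 181 regions (13.2%), against 6.31% of all other intervals, with a background of 6.58%. The difference of 6.89 points (5.18 to 8.80) was positive on 19 of 20 chromosomes. It was also positive against regions with ATFs alone (2.90 points, 1.03 to 4.94), against those with KLFs alone (5.24 points, 3.37 to 7.27) and against joint regions with further factors (5.04 points, 3.17 to 7.08). Of the regions that had a neighbour within 1 kb at all, 57.6% had only such neighbours. This compares with 49.6% for regions with ATFs alone, 40.4% for those with KLFs alone and 33.5% for all other intervals. Within 10 kb the share was 28.3%, against 28.8% for regions with ATFs alone, and that difference (-0.556 points, -3.91 to 2.96) held 0. Regions with KLFs alone had 23.6% at 10 kb and all other intervals 19.7%.

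A neighbour listed for an AP-1 subunit or a receptor lay within 1 kb of 133 regions (9.69%), where the background over all intervals was 12.4%. The difference from all other intervals was -2.81 points (-4.31 to -1.10) and negative on 17 of 20 chromosomes. The low share was also found at regions with ATFs alone, where it was 10.4% and the difference (-0.754 points, -2.42 to 1.09) held 0. Within 10 kb such a neighbour was found for 42.9% of the regions, with a background of 48.5% and a difference from all other intervals of -5.86 points (-8.51 to -3.17). Regions with ATFs alone had 41.1% at 10 kb, and the difference from them (1.73 points, -1.16 to 4.65) held 0. At that distance the difference from all other intervals was -2.66 points (-5.17 to -0.0664) for AP-1 neighbours. For receptor neighbours it was -6.79 points (-9.26 to -4.22), with an interval that overlaps the first. Receptor neighbours were more frequent than near regions with ATFs alone, by 2.89 points (0.204 to 5.66). Compared with regions with KLFs alone they were less frequent (-4.88 points, -7.66 to -2.02).

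By factor, neighbours within 1 kb were more frequent than beside all other intervals for all 4 factors of the set. ATF2 stood beside 12.5% of the 1372 regions and 7.82% of all other intervals, ATF7 beside 8.24% and 5.34%, KLF4 beside 5.90% and 4.22%, and KLF5 beside 13.9% and 10.5%. Regions of the factor's own family were close to the set in this. The difference from regions with ATFs alone was 1.05 points (-0.799 to 3.06) for ATF2 neighbours and -0.0504 points (-1.58 to 1.66) for ATF7 neighbours. From regions with KLFs alone it was 0.897 points (-0.408 to 2.39) for KLF4 neighbours and 1.20 points (-0.793 to 3.33) for KLF5 neighbours, and KLF5 neighbours were more frequent, at 17.6%, beside joint regions with AP-1 or receptors.

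Compared with all other intervals, neighbours were less frequent for cJun (2.11% against 3.44%), VDR (4.74% against 6.62%) and RXR (5.32% against 7.31%). Regions with ATFs alone had similar shares, of 2.20% for cJun, 4.71% for VDR and 4.83% for RXR, and the 3 differences from them held 0. For FOSL2 (4.23% against 4.71%) and JunB (4.30% against 5.48%) the interval of the difference held 0. At 10 kb FOSL2 was the 1 absent factor that was more frequent near the set than near all other intervals, at 23.0% against 20.6% (2.32 points, 0.133 to 4.66). Regions with ATFs alone had 22.1%, and the difference from them (0.890 points, -1.51 to 3.41) held 0. Joint regions with AP-1 or receptors had a higher share, of 26.5%.

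**Figure D4:**
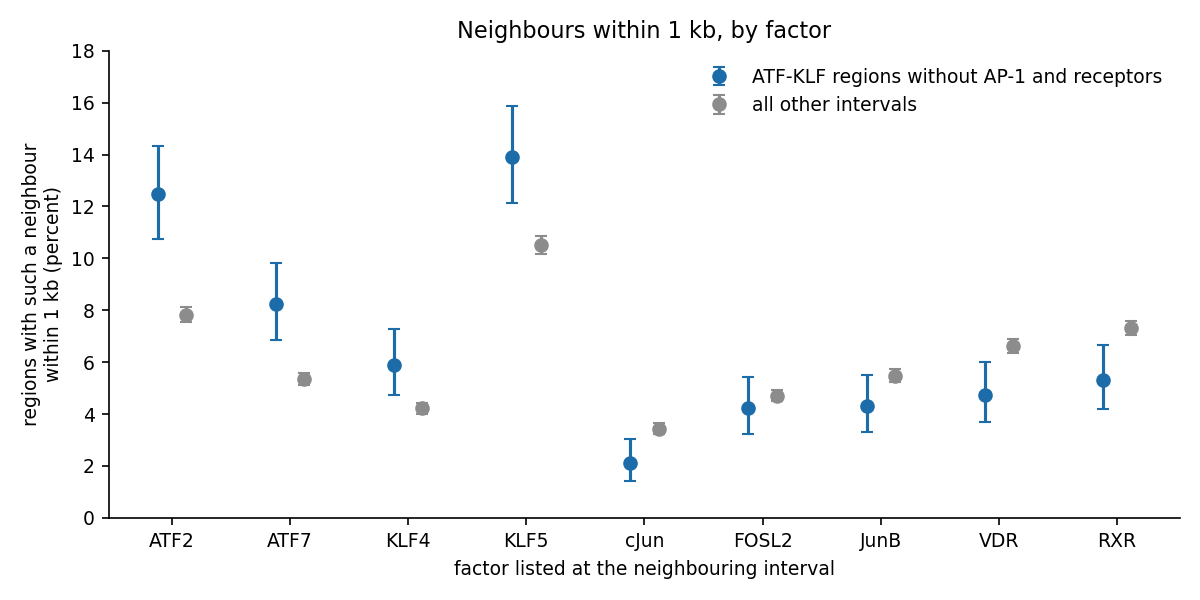
Percent of regions with another interval listed for the named factor within 1 kb, for the 1372 ATF-KLF regions (blue) and all other intervals (grey), with exact 95% intervals. Blue lies above grey for ATF2, ATF7, KLF4 and KLF5, and the intervals of the 2 sets do not overlap for cJun, VDR and RXR, where blue lies below.

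The neighbours were also compared within 5 bins of the row order. Neighbours that all lacked the 5 factors were more frequent in each of the 5 bins, by 4.33 points (1.18 to 8.44) at the top and 8.80 points (4.35 to 14.6) at the bottom. A neighbour of the same set was also more frequent in each bin, by 0.981 to 2.48 points, though the interval held 0 in bin 4 (-0.111 to 3.24). In no bin did more than 6 of 20 chromosomes have the higher share. This count says little, since at most 3.36% of the regions in a bin had such a neighbour. A chromosome without such a region was not counted as higher. The differences for AP-1 or receptor neighbours and for any neighbour turned along the order. For an AP-1 or receptor neighbour the difference was -8.93 points (-11.6 to -5.27) in bin 1, -4.79 points (-7.67 to -0.798) in bin 2, and 2.83 points (-1.33 to 8.39) in bin 5. For any neighbour it was -4.59 points (-8.74 to 0.304) in bin 1, 9.38 points (4.66 to 14.7) in bin 4 and 11.6 points (5.65 to 18.4) in bin 5. A hotspot neighbour was less frequent in bin 1, with a difference of -3.21 points (-4.53 to -0.761), while the intervals held 0 in the other 4 bins. The share in bin 1 was lower on 19 of 20 chromosomes. It was only 2.32%, so most chromosomes held no such region and that count says little. The regions near the top of the lists therefore had few AP-1 and receptor neighbours compared with other intervals there, and those near the bottom did not.

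**Figure D5:**
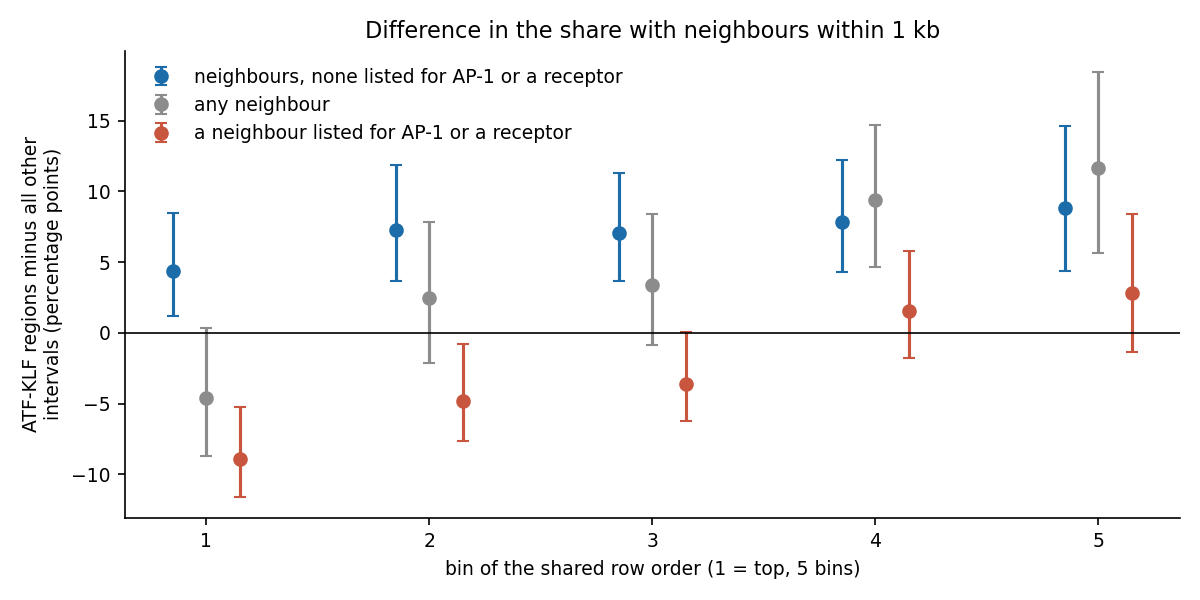
Difference between the 1372 ATF-KLF regions and all other intervals in the percent with a neighbour within 1 kb, in percentage points, in 5 bins of the shared row order, with Newcombe 95% intervals. Blue, all neighbours lack AP-1 and receptors; grey, any neighbour; red, a neighbour with AP-1 or a receptor. Blue is above 0 in every bin, and red runs from -8.93 to 2.83.

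For hotspots, taken here as intervals listed for 5 or more of the 9 factors, no difference from all other intervals was detectable at 1 kb or 10 kb over the whole order. A hotspot lay within 1 kb of 3.86% of the regions, with a background of 3.96%, and within 10 kb of 19.1%, with a background of 19.7%. The difference from all other intervals at 10 kb was -0.609 points (-2.65 to 1.60). Against regions with ATFs alone the share within 10 kb was 4.31 points higher (2.11 to 6.65), and against regions with KLFs alone the difference was 0.0175 points (-2.28 to 2.44). Against joint regions with AP-1 or receptors it was 9.55 points lower (19.1% and 28.6%), and the median distance to a hotspot was 67.3 kb for the 1372 regions, against 32.9 kb for these joint regions and 58.5 kb for all other intervals.

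Another region of the same set lay within 1 kb of 40 regions (2.92%), where 1.02% of all intervals had one nearby. The difference from all other intervals was 1.98 points (1.20 to 3.01), and no more than 9 of 20 chromosomes had the higher share. With only 40 such regions this count says little, since a chromosome without one was not counted as higher. With gaps up to 10 kb, 114 regions formed 53 groups, of which 46 had 2 regions and 6 had 3. The largest held 4 regions on chromosome 19, over 8.71 kb between 9058920 and 9067628 (mm9). Its intervals starting at 9058920, 9064285 and 9064902 were listed for ATF2 and KLF5, and that starting at 9067229 for ATF2, ATF7 and KLF5. No hotspot lay among the 6 intervals of this stretch.

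Among combinations, the 3 largest had similar shares with a close neighbour. The share with any neighbour within 1 kb was 22.4% of 580 regions for ATF2 with KLF5, 22.8% of 381 for both ATFs with KLF5, and 21.7% of 175 for ATF7 with KLF5. An AP-1 or receptor neighbour stood beside 11.2%, 6.82% and 10.9% of these, in the same order, with intervals of 8.76% to 14.1%, 4.51% to 9.84% and 6.66% to 16.4%. Of the 28 regions with ATF2 and KLF4, 0 had a neighbour within 1 kb, which allows a share of up to 12.3%. The share was 39.4% of 33 (22.9% to 57.9%) for both ATFs with KLF4 and 39.3% of 28 (21.5% to 59.4%) for ATF7 with both KLFs. The interval of ATF2 with KLF4 thus lay below those of these combinations and of ATF2 with KLF5 (19.1% to 26.0%), on few regions. Regions with KLF4 had another KLF4 interval within 1 kb more often (9.32% of 236) than regions without it (5.19% of 1136), by 4.13 points (0.720 to 8.66). The same difference within 1 kb was 1.09 points (-4.08 to 5.18) for ATF2 and 2.48 points (-0.445 to 5.43) for ATF7. For KLF5 it was 4.56 points (-3.88 to 9.65). These intervals held 0, but they overlapped that of KLF4. Within 10 kb the KLF4 difference was 4.87 points (-0.687 to 11.1), with an interval that held 0. At that distance only KLF5, with 16.1 points, had an interval that left out 0.

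Single regions show the range of settings. The region nearest the top of the order carried ATF2, ATF7 and KLF5 and lay on chromosome 17 at 39984014 to 39984413, with an interval for ATF2 and ATF7 at 1419 bp. The first region with ATF2 and KLF5 lay on chromosome 5 at 34278979 to 34279378, and its nearest interval was 19580 bp away. Of the regions with all 4 factors, the one on chromosome 5 at 65828242 to 65828641 stood at 5.72% and had an interval with 7 factors at 657 bp. Another on chromosome 1 at 88367313 to 88367712 stood at 92.4% and overlapped an interval with 8 factors, whose midpoint was 349 bp away. Such overlap was rare: 33 regions (2.41%) overlapped an interval listed for an AP-1 subunit or a receptor, against 2.91% of all other intervals. Overlap with any interval was more frequent, at 92 regions (6.71%), against 4.91% of all other intervals. Another region of the same set overlapped 10 regions (0.729%), against 0.243% of all other intervals. These overlaps are part of the shares with a neighbour within 1 kb given above.

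By chromosome, the set made up between 2.09% of intervals on X (1.15% to 3.48%) and 5.77% on chromosome 17 (4.64% to 7.07%). Chromosome 5 followed with 5.64% and chromosome 7 with 5.15%, and chromosome 10 was second lowest with 2.39% (1.82% to 3.08%). Chromosome 10 holds 4 windows of 1 Mb that are densely listed, with 948 intervals and 141 hotspots. Only 10 of those intervals (1.05%) belonged to the set, against 3.25% on the rest of that chromosome. As a share of joint ATF-KLF regions, the set ranged from 16.6% on chromosome 10 to 31.8% on X (18.6% to 47.6%).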

How the data were processed

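Each of the 9 files, as deposited by the authors, holds 400 bp intervals as chromosome, start and end and no other value, so positions are the one unit used. Per the submitters' processing notes, FastQC, Bowtie and HOMER were used with mm9. The sources used here do not give their roles, versions or thresholds. Of 30 labelled samples, 9 had a file and 21 were not analysed here. Members and comparison sets were chosen with earlier results of these data known. Intervals count as shared where all 3 columns are identical. The shared row order was added after seeing the data, and its positions are midpoints between the lowest and highest place that all lists allow. Coordinates are 1-based. Shares carry exact Clopper-Pearson 95% intervals, differences Newcombe's 95% interval (members minus the other set) and medians the exact binomial interval. Values weighted over 5 bins of the order, by the members in each, carry normal 95% intervals. Named regions are the first 10 with all 4 factors by position, and per combination the first in row order and the one with the nearest neighbour, of which a few are printed, and the largest group. Calculations were tested on simulated lists. Python 3.11.15, numpy 2.4.6, scipy 1.17.1 and matplotlib were used. No mm9 genome or annotation was used here, so no sequence is printed and no gene named.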

Additional observations from a re-analysis of the deposited data

How the results depend on the processing

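Of 109 alternatives computed, 87 kept direction and side of 0, or stayed inside the first value's interval. The 87 include every alternative of the number of regions, which has no direction to change. They also include changes of size. For a neighbour of the same set, the difference of 1.98 points at 1 kb was 8.78 at 50 kb. The number of regions ranged from 1339, when overlapping AP-1 or receptor intervals also counted as presence, to 1675, when RXR was left out of the choice. The KLF4 share difference of 3.51 points was 2.14 with the ATF2 list alone and 1.36 weighted over 5 bins of the row order, and the ATF7 difference of 5.28 was 2.55 weighted likewise. With these 3 the interval held 0. Median positions in the ATF2, ATF7, KLF4 and KLF5 lists, 54.6%, 54.1%, 81.0% and 59.9%, were 45.8%, 39.1%, 47.6% and 47.7% in the shared order, by construction, since it ranks over all intervals. Shares with neighbours grew with the distance allowed, from 1 kb through 10 kb to 50 kb: 22.9%, 59.8% and 91.6% for any interval, 3.86%, 19.1% and 42.8% for a hotspot, and 9.69%, 42.9% and 78.1% for AP-1 or receptors. Hotspots of 4 or more factors gave 24.9%, and of 6 or more 14.7%. Differences from all other intervals also changed with distance. For any neighbour 4.07 points at 1 kb became -0.889 at 10 kb and 1.46 at 50 kb. For KLF4 neighbours 1.69 became 0.0668 and -2.95, and for KLF5 neighbours 3.41 became 1.09 and 0.225. For a hotspot -0.609 at 10 kb became -3.91 at 50 kb. The cause was not tested. No paired analysis was possible because each factor had 1 library, and none could be left out as a replicate. A stricter peak threshold could not be tried, as the lists hold no score, and the alternatives on gene starts, GC content and motifs were not run without an mm9 genome. The unknown depth of each library limits what absence from a list means.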
